A study of Mus musculus with 7 samples.

Results

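The MS4A genes (membrane-spanning 4-domains, subfamily A) encode small cell surface proteins that cross the membrane several times. They were followed here through 8 listed mouse genes, Ms4a1, Ms4a4b, Ms4a4c, Ms4a6b, Ms4a6c, Ms4a6d, Ms4a7 and Ms4a8a, out of 20018 genes named on the array. A gene was a member when the RefSeq accession of at least 1 probe belonged to it, which held for all 8. The signal of a member was tested when its probe was well above background, in the scanner software's call, on at least 3 of 7 arrays. Of the 8 members, 6 met that filter and are compared between groups. Ms4a1 and Ms4a8a did not, and are described by their values on each array.

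The samples were dendritic cells, antigen-presenting cells of the immune system, grown for this study from sorted common myeloid progenitors of C57BL/6 mice. All donors carried a Gata2 gene flanked by loxP sites on both copies, Gata2(f/f), and all received tamoxifen between day 1 and day 10 of a schedule. GATA2 is a transcription factor that blood stem and progenitor cells need. The 3 arrays labelled knockout came from donors that also carried ER-Cre, a recombinase switched on by tamoxifen, while the 4 control arrays came from donors without it. The sources used here do not give the promoter that drives the recombinase, the age of the mice or any pooling of animals. Progenitors were sorted on days 20 to 22 and cultured with FLT3 ligand at 200 ng/ml with bone marrow feeder cells of SJL mice, which carry another CD45 allele (CD45.1, against CD45.2 in the progenitors), and the sources used here do not say how dendritic cells were separated from feeder cells. The series title speaks of progenitors, while every sample is labelled as dendritic cells. Separate donors are not stated for the replicates, and p-values therefore cover no more than the spread between these arrays, which may be technical. The comparison asks which RNAs differ in cultured cells when Gata2 is targeted in the donor.

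MS4A proteins are best known from CD20, encoded by Ms4a1, a surface protein of B cells, and from Ms4a2, the beta chain of the high-affinity IgE receptor of mast cells and basophils. Many other members are carried by monocytes and macrophages, where they are thought to act beside other receptors in the membrane. Others, such as Ms4a4b, are known from T cells. In mouse, 21 genes named Ms4a lie together on chromosome 19 in the RefSeq table used here, with 1 other protein-coding gene between the first and the last.

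Markers of the labelled cell type were measured first. Of 15 tested genes of conventional dendritic cells, 1 passed the threshold, and of 9 genes of plasmacytoid dendritic cells none passed in the limma fit (adjusted p from 0.0814 for Ccr9 upward, with Ly6d next by size of change at a log2 difference of -0.33, adjusted p = 0.395). The growth factor receptor gene Flt3 read between 4.88 and 5.11 on all 7 arrays, on the log2 scale relative to each array's 75th percentile, the unit of every level below. Gata2 did not fall in the arrays labelled knockout: its single probe read 2.99 ± 0.064 (SD, n = 3) there and 0.17 ± 0.29 (SD, n = 4) in the controls, a rise of 7.08-fold (limma adjusted p = 0.000153). The sources used here do not say whether that probe lies in the deleted part, so groups are named by their labels throughout. More spots were well above background in the arrays labelled knockout (61.5% to 67.4%) than in the controls (54.1% to 56.9%). Negative control spots were dimmer there (-9.06 to -8.31) than in the controls (-7.70 to -7.39). Each group occupied its own row of 1 slide and the recombinase was in 1 group alone, so neither the row nor the recombinase can be told apart from the Gata2 genotype.

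In the arrays labelled knockout, 3 of the 6 tested members fell and none rose. Ms4a7 fell 2.74-fold, Ms4a6d 2.15-fold and Ms4a6c 1.65-fold. Ms4a4b, Ms4a6b and Ms4a4c had lower means by 1.46-fold, 1.21-fold and 1.08-fold and did not pass the threshold of 0.05 on the adjusted p. Among all 14549 genes tested, 1.38% were called lower and 1.49% higher by the same rule, 2.87% in all. These were 201 genes lower and 217 higher, a split that turned to 283 lower and 195 higher with normexp background correction. The median log2 difference over the 6 tested members was -0.64, beside -0.045 over all genes tested. In these bulk samples, fewer cells of a type and less RNA per cell cannot be told apart.

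**Figure D1:**
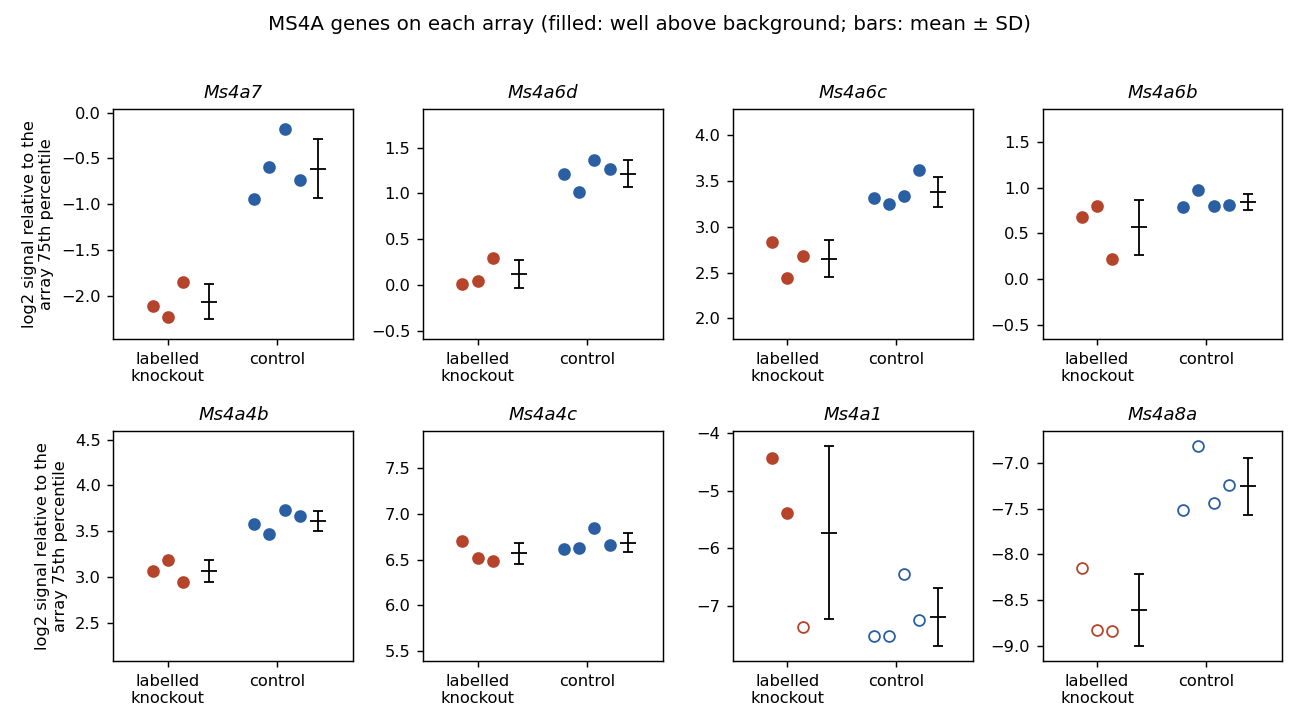
Level of the 8 listed Ms4a genes on each array, as log2 signal relative to the array's 75th percentile (vertical axis, a range of its own for each gene), for 3 arrays labelled knockout and 4 controls. Filled points are well above background, open points are not, and bars give the mean ± SD. For Ms4a7, Ms4a6d, Ms4a6c, Ms4a4b and Ms4a8a every array labelled knockout lies below every control, and Ms4a8a has open points alone. The same held for 8.04% of the tested genes measured on every array.

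Ms4a7, a gene known from macrophages and microglia, moved furthest among the tested members. It read -2.12, -2.23 and -1.86 on the arrays labelled knockout, and -0.94, -0.59, -0.17 and -0.74 on the controls. All 3 arrays labelled knockout were below all 4 controls, as held for 8.04% of the tested genes measured on every array. The controls were the more spread out group. The means were -2.07 ± 0.19 (SD, n = 3) and -0.61 ± 0.32 (SD, n = 4), and the log2 difference was -1.46 (SE 0.20, 95% interval -1.92 to -0.998, limma adjusted p = 0.00685). Of all genes tested, 1.24% had a log2 difference at or below that of Ms4a7. The call held under each of the 21 other settings tried, with adjusted p between 0.00246 and 0.0391.

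The MS4A6 genes are close relatives of one another that lie near each other in the cluster, and are known from monocytes and macrophages. Ms4a6d read 0.012, 0.039 and 0.29 on the arrays labelled knockout and 1.21, 1.02, 1.37 and 1.26 on the controls. The groups were apart by more than their whole spread, with means of 0.11 ± 0.15 (SD, n = 3) and 1.21 ± 0.15 (SD, n = 4). The log2 difference was -1.10 (SE 0.14, 95% interval -1.42 to -0.78, limma adjusted p = 0.00464), and 1.89% of genes had one as low or lower. The call held in 20 of 21 other settings.

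Ms4a6c read 2.84, 2.44 and 2.68 on the arrays labelled knockout and 3.32, 3.25, 3.34 and 3.62 on the controls. The groups did not overlap, as was so in this direction for 8.04% of the genes measured on every array, and in the other for 5.78%. The means were 2.65 ± 0.20 (SD, n = 3) and 3.38 ± 0.16 (SD, n = 4), with a log2 difference of -0.73 (SE 0.15, 95% interval -1.08 to -0.38, limma adjusted p = 0.0477). That call was close to the threshold. It was lost in 14 of 21 other settings, among them the removal of any 1 array, with adjusted p between 0.0602 and 0.174 there, while the log2 difference stayed between -0.82 and -0.62.

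Ms4a6b, the third of these relatives, did not separate the groups. Its values were 0.68, 0.80 and 0.22 on the arrays labelled knockout and 0.79, 0.98, 0.80 and 0.81 on the controls. Replicate 3 labelled knockout was the lowest array, and replicate 2 lay within the range of the controls. The log2 difference of Ms4a6b was -0.28 (SE 0.16, 95% interval -0.65 to 0.10, limma adjusted p = 0.525), so a decrease of up to 0.65 is within its interval.

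Whether the relatives moved by different amounts was tested within arrays, on the difference between the 2 genes' log2 values, with a two-sided exact permutation test over the 35 splits of 7 arrays into 3 and 4. Over the 4 pairs tested, p-values were also adjusted by Benjamini-Hochberg, and the smallest unadjusted p that the design allows is 0.0286. Ms4a6d minus Ms4a6b was lower in the arrays labelled knockout by a log2 difference of -0.82, with overlapping groups (exact p = 0.0571, adjusted 0.0762). Ms4a6c minus Ms4a6b differed by -0.45 (exact p = 0.114, adjusted 0.114), and Ms4a6d minus Ms4a6c by -0.37 (exact p = 0.0571, adjusted 0.0762). None of these 3 pairs passed 0.05. A single pair at the smallest p could not pass after adjustment over 4 pairs, so the test could hardly show unequal change. Whether the MS4A6 genes changed unequally stays undecided. The test was not among the planned ones.

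**Figure D2:**
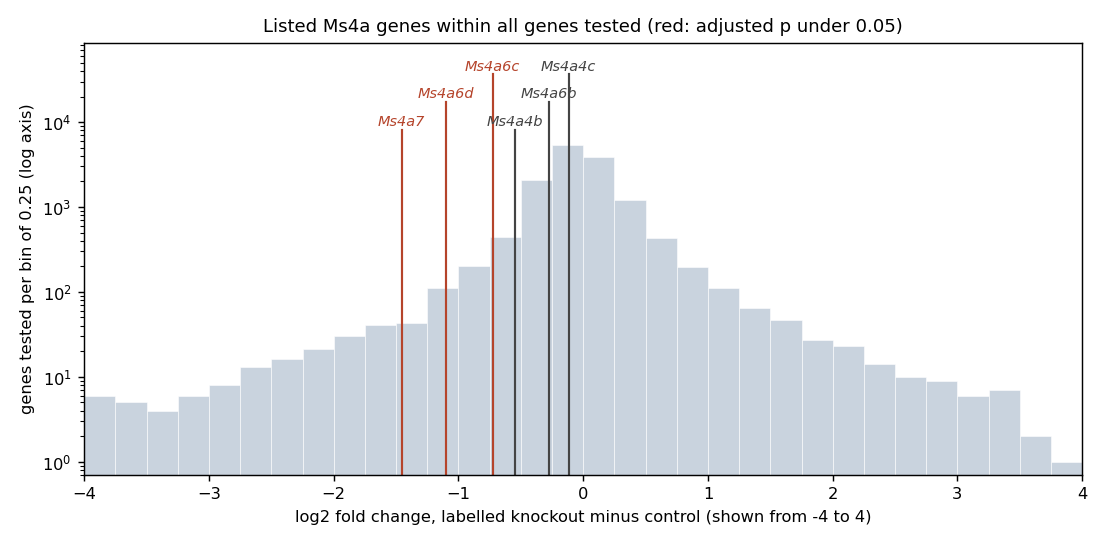
Histogram of the log2 fold change, arrays labelled knockout minus controls, over the 14549 genes tested, shown from -4 to 4 with gene counts on a log axis. Vertical lines mark the 6 tested Ms4a genes, which all lie left of 0, from Ms4a7 at -1.46 to Ms4a4c at -0.12. Of the 14549 genes tested, 8432 lie left of 0.

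Ms4a4b, a gene known from T cells, was lower on every array labelled knockout than on any control, as were 8.04% of genes. It read 3.06, 3.18 and 2.94 there, against 3.58, 3.46, 3.72 and 3.66 on the controls. Its log2 difference was -0.55 (SE 0.13, 95% interval -0.84 to -0.25), and its limma adjusted p of 0.0743 did not pass. It passed in 5 of 21 other settings. Over those 21, the adjusted p lay between 0.00583 and 0.41.

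Ms4a4c, its close relative in sequence, had 3 probes, all of them well above background on each array. The probe with the highest mean read 6.70, 6.52 and 6.49 on the arrays labelled knockout and 6.62, 6.63, 6.84 and 6.66 on the controls. The highest value of the first group exceeded all controls but replicate 3, and the log2 difference was -0.12 (SE 0.13, 95% interval -0.41 to 0.17, limma adjusted p = 0.752). The other probes of Ms4a4c gave -0.16 and -0.40, neither past the threshold in a fit of all probes (limma adjusted p = 0.825 and 0.565). With quantile normalization the sign of Ms4a4c turned, to 0.11 (adjusted p = 0.754). Within arrays, Ms4a4b minus the Ms4a4c probe of highest mean was lower in the arrays labelled knockout by -0.43, without overlap between groups. The exact permutation p was 0.0286, two-sided and the smallest possible, and 0.0762 after adjustment. With either of the other Ms4a4c probes in its place the groups overlapped, and no test was run on those. This pair did not pass after adjustment either, and with so few arrays no conclusion is drawn from that. Related genes can share sequence under a probe, and whether these probes read more than 1 of them was not tested.

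The upstream windows of the relatives are shown because close relatives share long stretches of them. Windows are the 250 bases before the gene start, from RefSeq on build GRCm38.p6, and 6 of 8 members had at least 1 in the table (7 windows in all). Capitals mark the longest run of bases that both genes of a pair share. The pair of Ms4a6b and Ms4a6c shares 48 bases, which end 71 bases before the start of Ms4a6b and 2 bases before the start of Ms4a6c, and 153 of 173 aligned bases (88.4%) are identical. The pair of Ms4a4b and Ms4a4c shares a run of 20 bases, with 189 of 227 aligned bases (83.3%) identical. Apart from these pairs, no 2 windows of listed members shared a run longer than 9 bases. Percent identity alone sets them apart less, as some other pairs came near it over fewer aligned bases. It was 83% over 100 bases for Ms4a6b with Ms4a8a, and 86.5% over 37 for Ms4a8a with the first start of Ms4a7.
Ms4a6b (chr19:11518309-11518558, plus strand): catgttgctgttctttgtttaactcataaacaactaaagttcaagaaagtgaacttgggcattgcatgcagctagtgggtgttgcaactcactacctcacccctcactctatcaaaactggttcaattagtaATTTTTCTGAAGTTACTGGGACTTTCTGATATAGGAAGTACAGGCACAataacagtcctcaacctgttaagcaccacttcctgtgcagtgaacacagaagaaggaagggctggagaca
Ms4a6c (chr19:11469118-11469367, plus strand): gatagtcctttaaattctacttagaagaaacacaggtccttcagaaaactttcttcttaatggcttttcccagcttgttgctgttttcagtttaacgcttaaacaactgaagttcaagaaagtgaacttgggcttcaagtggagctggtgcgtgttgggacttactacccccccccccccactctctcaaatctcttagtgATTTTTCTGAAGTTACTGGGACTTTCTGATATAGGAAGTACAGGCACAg
Ms4a4b (chr19:11443308-11443557, plus strand): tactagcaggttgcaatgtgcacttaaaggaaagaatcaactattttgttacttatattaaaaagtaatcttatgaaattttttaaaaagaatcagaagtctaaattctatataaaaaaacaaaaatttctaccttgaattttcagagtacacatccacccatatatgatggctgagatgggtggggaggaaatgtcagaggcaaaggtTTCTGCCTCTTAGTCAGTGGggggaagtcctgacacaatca
Ms4a4c (chr19:11407411-11407660, plus strand): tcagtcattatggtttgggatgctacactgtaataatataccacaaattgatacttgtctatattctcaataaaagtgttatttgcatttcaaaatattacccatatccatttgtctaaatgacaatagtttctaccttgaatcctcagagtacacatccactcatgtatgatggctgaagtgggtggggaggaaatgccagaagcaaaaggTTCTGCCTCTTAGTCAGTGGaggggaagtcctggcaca

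Short motifs were searched in these windows on both strands. The GATA motif AGATAA was in none of the 7 windows of listed members and in 9.99% of all 32851 windows of the table. Without its first base, as GATAA, it was in 1 of them, the second of the 2 starts of Ms4a7, beside 22.6% of all windows. The PU.1 motif GAGGAA, of a transcription factor of myeloid and B cells, was in the windows of Ms4a4b and Ms4a4c (23.3% of all windows). In both it lay at nearly the same place, from 64 to 59 bases before the start of Ms4a4b and from 61 to 56 before that of Ms4a4c. The Maf core TGCTGA was in the window of Ms4a8a alone among listed members, at 2 places (16.1% of all windows). The motif of interferon regulatory factors was in none (2.98% of all windows). AGATAA holds GATAA within it. A match is a match of letters, not a shown binding site.

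The window of the first of the 2 listed starts of Ms4a7, the gene with the largest change among tested members, held none of the motifs and is printed without capitals for comparison.
Ms4a7 (chr19:11336147-11336396, minus strand): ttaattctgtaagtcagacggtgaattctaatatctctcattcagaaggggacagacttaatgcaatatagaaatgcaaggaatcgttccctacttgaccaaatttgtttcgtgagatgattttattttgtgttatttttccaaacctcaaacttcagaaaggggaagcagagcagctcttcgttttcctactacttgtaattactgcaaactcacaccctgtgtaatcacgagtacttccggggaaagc

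Ms4a1, which encodes CD20, was near the limit of detection. Its probe read -4.43, -5.40 and -7.38 on the arrays labelled knockout and was well above background on the first and second of them. On the controls it read -7.54, -7.53, -6.46 and -7.26, and was well above background on none. Replicate 3 labelled knockout lay within the range of the controls, so the groups overlapped. No fold is given, because the mean of the arrays labelled knockout, -5.73 ± 1.50 (SD, n = 3), lay below the dimmest signals well above background on the controls, which were between -5.59 and -5.32. Without the filter, Ms4a1 had a log2 difference of 1.46 (SE 0.65, limma adjusted p = 0.235).

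Of the 12 tested B cell genes, 1 rose and none fell, with a median log2 difference of 0.23. That gene was Cd72, an inhibitory receptor of B cells, which rose 1.99-fold (SE of the log2 difference 0.13, limma adjusted p = 0.00464). The B cell list's median turned to -0.089 when every array had to exceed background. Its summed signal, in multiples of the array's 75th percentile, was 19.4 to 24.1 in the arrays labelled knockout and 18.5 to 24.5 in the controls.

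On none of the 7 arrays was Ms4a8a well above background. Its values were -8.16, -8.83 and -8.84 on the arrays labelled knockout and -7.51, -6.82, -7.44 and -7.24 on the controls. These follow the negative control spots, which were lower in the arrays labelled knockout too, and no fold is given. Without the filter it would have been called lower (log2 difference -1.35, limma adjusted p = 0.00765), in a fit that called 2483 genes lower.

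Of the other MS4A genes and their relatives Tmem176a and Tmem176b, 9 of 12 on a fixed list were on the array and 7 were tested. Among these 7, 1 fell and none rose, with a median log2 difference of 0.059, which turned to -0.0066 without the filter, when every array had to exceed background, and with 1 floor for all arrays. The one that fell was Ms4a2, which read -8.11, -8.12 and -8.90 on the arrays labelled knockout, all 3 below the background limit, and -4.74, -4.61, -4.03 and -4.70 on the controls. It was at least 4.38-fold lower, against the dimmest signal well above background on each array labelled knockout (limma adjusted p = 0.00018 in the fit without a floor), and 1.75-fold with 1 floor for all arrays, under which it no longer passed (log2 difference -0.80, adjusted p = 0.0992). The Ms4a2 window is shown because it holds AGATAA 3 times, in capitals, on either strand (TTATCT is its reverse complement), ending 219, 32 and 6 bases before the start. Of all windows, 9.99% held AGATAA, and that of the neighbour Ms4a3 did not. Binding of GATA2 to the Ms4a2 window was not tested.
Ms4a2 (chr19:11623720-11623969, minus strand): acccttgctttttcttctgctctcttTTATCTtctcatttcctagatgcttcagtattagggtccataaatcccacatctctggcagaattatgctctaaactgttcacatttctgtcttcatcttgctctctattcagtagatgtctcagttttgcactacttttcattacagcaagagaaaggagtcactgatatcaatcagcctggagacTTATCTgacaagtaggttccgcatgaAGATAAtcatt

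Ms4a3, the neighbour of Ms4a2 in the cluster and a gene of granulocyte and monocyte progenitors, showed no such difference. It read 2.06, 1.39 and 2.04 on the arrays labelled knockout and 1.42, 2.10, 1.86 and 1.96 on the controls. The log2 difference was -0.0066 (SE 0.23, 95% interval -0.53 to 0.52, limma adjusted p = 0.994), and its sign turned in 8 other settings. Tmem176a and Tmem176b had log2 differences of 0.059 and -0.14 (limma adjusted p = 0.931 and 0.735), and the sign of each turned in at least 1 other setting.

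The remaining listed relatives were dim. Ms4a5, Ms4a10 and Ms4a13 had log2 differences of 0.15, 0.40 and 0.22, with limma adjusted p = 0.773, 0.505 and 0.65. The sign of all 3 turned with normexp background correction. In the probes used, Ms4a5 and Ms4a10 exceeded background on 3 of 3 arrays labelled knockout and 0 of 4 controls, although their groups overlapped. The dimmest signal counted as well above background was lower in the arrays labelled knockout (-6.91 to -6.21) than in the controls (-5.59 to -5.32). Ms4a4d stayed within background on all 7 arrays, and Ms4a15 exceeded it on control replicate 2 alone. Ms4a19 and Ms4a20 were looked up after the arrays were read. Ms4a19 exceeded background on 3 of 3 arrays labelled knockout and 0 of 4 controls, with a log2 difference of -0.031, and Ms4a20 on none.

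**Figure D3:**
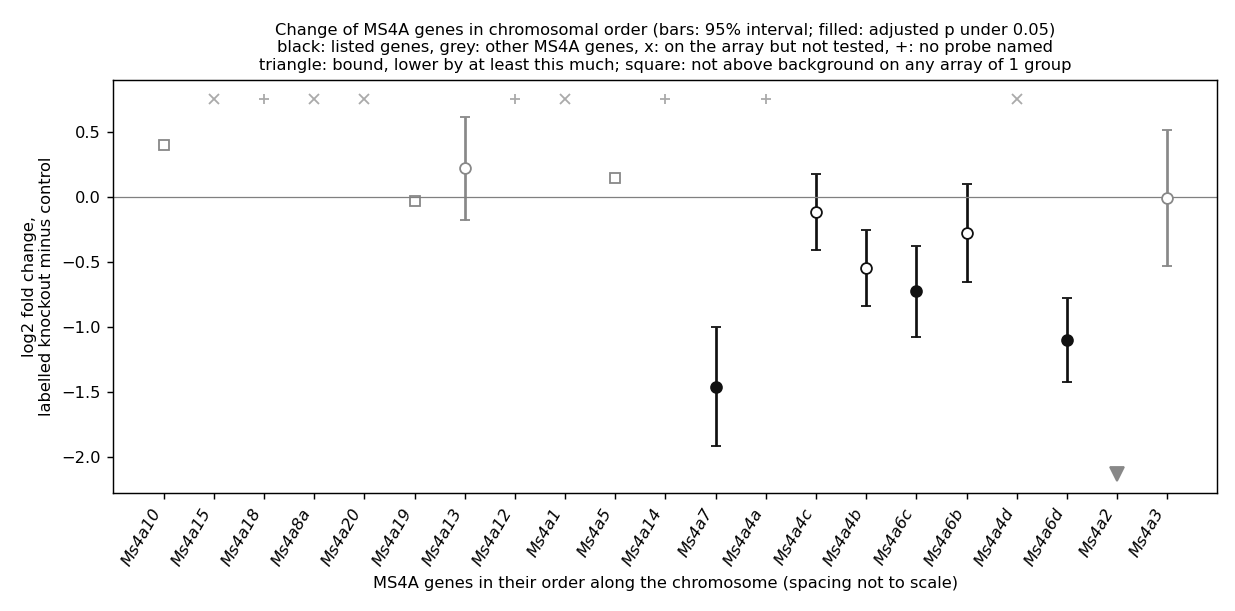
Log2 fold change of the MS4A genes, arrays labelled knockout minus controls, in their order along chromosome 19 with spacing not to scale. Circles are estimates with 95% intervals, filled where they passed. The triangle of Ms4a2 is a bound at -2.13, since all 3 arrays labelled knockout read Ms4a2 within background, and squares are genes within background on every control. The tested genes from Ms4a7 to Ms4a6d all lie below 0, as did 8432 of all 14549 genes tested, and Ms4a3 at the end is at -0.0066.

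In chromosomal order, Ms4a6d and Ms4a2 were the only neighbours that were both called. Ms4a7 is followed by Ms4a4a, for which no probe was named, and by Ms4a4c, which did not pass. Ms4a6c lies between Ms4a4b and Ms4a6b, neither of which passed. Ms4a2 is followed by Ms4a3, with a log2 difference near 0.

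Receptors and chains known to be linked to MS4A proteins were given a list of their own. Of 7 tested, 1 fell and none rose, and the median log2 difference was -0.089. Fcer1a, the alpha chain of the IgE receptor that holds the Ms4a2 product, fell (log2 difference -5.05, SE 0.75, limma adjusted p = 0.0101), with 2 of 3 arrays labelled knockout well above background. Its log2 difference was -4.003 without replicate 2 labelled knockout, the array within background, and -3.48 with 1 floor for all arrays (adjusted p = 0.00235 and 0.00168). Fcer1g, the gamma chain that this receptor shares with Fc receptors of other cells, had a log2 difference of -0.15 (limma adjusted p = 0.78). Trem2, a macrophage receptor linked to MS4A genes in human studies, was singled out after its values were seen. It read 0.13, -0.40 and 0.37 against 0.59, 0.88, 0.91 and 0.97, without overlap (as for 8.04% of genes in this direction). Trem2 did not pass (limma adjusted p = 0.0927). Tnfrsf18, a surface receptor found on T cells with which the Ms4a4b product is known to associate, was likewise singled out later. It had a log2 difference of 0.49 (limma adjusted p = 0.149).

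Monocyte and macrophage genes, the cell types from which Ms4a7 and the MS4A6 genes are known, were lower as a list. Among the 16 that were tested 8 fell, none rose, and the median log2 difference was -1.12. The list's summed signal was 76.9 to 89.3 in the arrays labelled knockout and 119 to 140 in the controls, and each of its 18 genes on the array was well above background somewhere. Maf, a transcription factor of macrophages, fell 3.44-fold (SE of the log2 difference 0.25, limma adjusted p = 0.00765). F13a1, a coagulation factor chain of monocytes, fell 3.22-fold (SE 0.14, limma adjusted p = 0.00049). C1qc, a complement chain of macrophages, fell too (log2 difference -3.72, limma adjusted p = 0.0165). Only 1 of 3 arrays labelled knockout had C1qc well above background. With 1 floor for all arrays C1qc no longer passed (log2 difference -1.91, adjusted p = 0.113), nor did it when replicate 1 labelled knockout was removed (adjusted p = 0.0706) or replicate 3 (0.0779). C1qb, another complement chain of the list, was well above background on every array. Its log2 difference was -0.41, and it did not pass (limma adjusted p = 0.461). Csf1r and Ccr2, growth factor and chemokine receptors of monocytes singled out after their values were seen, had log2 differences of -0.30 and -0.36 and did not pass (limma adjusted p = 0.472 and 0.237). The part of these markers in the lower signal of Ms4a7, Ms4a6d and Ms4a6c was not tested.

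**Figure D4:**
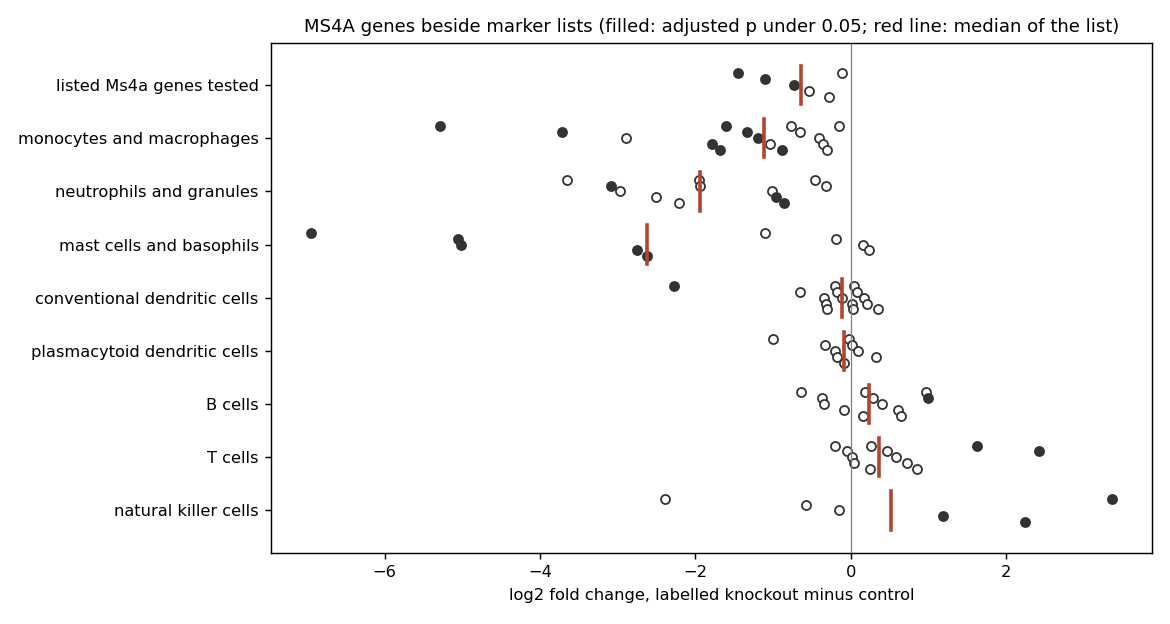
Log2 fold change, arrays labelled knockout minus controls, of the 6 tested Ms4a genes and of 8 marker lists, 1 point a gene, filled where the adjusted p passed, with a red line at each list's median. Fitted values are plotted with no floor, also for genes within background in 1 group. The median is -0.64 for the Ms4a genes and -1.12 for monocytes and macrophages, and the dendritic cell lists lie at -0.11 and -0.094.

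The other lists hold marker genes of cells that can carry MS4A proteins. They give RNA signal and not numbers of cells, and a list's summed signal is weighted towards its brightest genes. Of 9 tested mast cell and basophil genes, 5 fell and none rose (median log2 difference -2.62). Their summed signal was 7.68 to 10.72 in the arrays labelled knockout and 18.4 to 30.2 in the controls. Prss34, Cpa3 and Hdc, encoding a basophil protease, a mast cell carboxypeptidase and the histamine-making enzyme, had log2 differences of -6.94, -5.02 and -2.75 (limma adjusted p = 0.00018, 0.000117 and 0.00551). Kit, Tpsb2, Mcpt4 and Il1rl1 of the same list did not pass, at -0.20, 0.15, 0.24 and -1.11 (limma adjusted p = 0.688, 0.74, 0.626 and 0.0976). Mcpt4 was well above background on no control. Of 12 neutrophil and granule genes 3 fell and none rose (median -1.95). These were Cebpe, a transcription factor of granule formation, and the proteases Prtn3 and Elane, with log2 differences of -3.09, -0.96 and -0.86 (limma adjusted p = 0.00119, 0.0287 and 0.0352). Prtn3 missed the threshold when replicate 2 or 3 labelled knockout was removed, or replicate 1, 3 or 4 of the controls, with adjusted p of 0.0618 to 0.105. Elane missed it on removal of any array except replicate 1 labelled knockout, with adjusted p of 0.0592 to 0.153. The summed signal of the neutrophil list was 87.5 to 123 in the arrays labelled knockout and 132 to 151 in the controls.

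Of 12 T cell genes, the cells from which Ms4a4b is known, 2 rose and none fell (median 0.36). Trat1 and Lck, a T cell receptor adaptor and a kinase, rose 5.36-fold and 3.07-fold (limma adjusted p = 0.00018 and 0.000234). Cd3d, Cd3e, Cd4 and Cd8a did not pass, at log2 differences of 0.0094, -0.049, 0.045 and -0.20 (limma adjusted p = 0.992, 0.915, 0.949 and 0.927). Nor did Cd3g, Lat, Cd5, Cd2, Cd28 and Thy1, at 0.24 to 0.86 (limma adjusted p = 0.0992 to 0.699). The summed T cell signal was 15.0 to 20.2 in the arrays labelled knockout and 11.2 to 12.3 in the controls. Cd28 and Lck were the brightest genes of this list in the arrays labelled knockout (means 2.63 and 2.04). In the controls their means were 2.37 and 0.42. Cd247 and Bcl11b exceeded background on no array. Of 6 natural killer cell genes, 3 rose and none fell (median 0.51, but -0.16 when every array had to exceed background). These were Gzma and Nkg7, of cytotoxic granules, and the transcription factor gene Eomes, which rose 10.3-fold, 4.71-fold and 2.27-fold (limma adjusted p = 0.00942, 0.000192 and 0.007). The other 3, Gzmb, Klrd1 and Prf1, had log2 differences of -2.39, -0.58 and -0.16 and did not pass (limma adjusted p = 0.234, 0.286 and 0.722). Ncr1 exceeded background on no array, and the summed signal was 26.3 to 29.7 against 23.2 to 35.9. The gene of the conventional dendritic cell list that fell was Clec10a, a lectin receptor, by 4.86-fold (limma adjusted p = 0.000187). That list's summed signal was 277 to 307 against 315 to 350, and that of plasmacytoid dendritic cells 182 to 230 against 199 to 232. The part of these cell types in the values of the MS4A genes was not tested.

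The genes with the pattern most like each called member were found by the root mean square difference over the 7 arrays, after each gene was centred on its own mean. For Ms4a7 these were Tnfrsf1b, a receptor of tumour necrosis factor, C3, the central complement component, and Cited4, at 0.17, 0.20 and 0.23 log2 units, beside a median of 0.77 over 14509 other genes. For Ms4a6d they were Nol4l, Lbp, which encodes a lipopolysaccharide-binding protein, and Mmp8, a neutrophil collagenase, at 0.14, 0.15 and 0.17 (median 0.59). For Ms4a6c they were Tmem205, Klk1b21, a kallikrein, and Cstb, a cathepsin inhibitor, at 0.11, 0.12 and 0.13 (median 0.44). The genes nearest to these members were different for each of them. Between the members themselves, the closest pairs were Ms4a4c with Ms4a6b at 0.20 and Ms4a4b with Ms4a6c at 0.20, and Ms4a6d was closer to Ms4a6c (0.25) and Ms4a7 (0.26) than to Ms4a6b (0.50). These distances follow the group difference of each gene and carry no test.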

How the data were processed

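RNA was amplified and labelled with Cy3 and hybridised to 7 one-colour Agilent arrays, per the labels' protocols. Each scanner file gives the intensity of every spot as the authors deposited it, and per the file headers the software was Feature Extraction 10.7.3.1. The deposited series table holds log2 values centred on each probe's median over the arrays, as found by comparison with the scanner values (correlation of array differences 1 over 33874 probes, column medians -0.02 to 0). That table served as an alternative.

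Levels here are log2 processed signal minus the array's 75th percentile, taken without control spots (2671 to 3825 intensity units). Spots marked as outliers were dropped and repeats of a probe averaged. Of 55681 probes, 34133 exceeded background clearly on 3 or more of 7 arrays, and 26413 of all probes matched a RefSeq accession of assembly GRCm38.p6. The array's own annotation uses an earlier build. Of a gene's tested probes the one of highest mean stood for it, if it had values on at least 2 arrays of each group. No member had an outlier spot. The comparison used limma 3.58.1 (lmFit, eBayes; R 4.3.3) over 14549 genes, with Benjamini-Hochberg adjustment and a threshold of 0.05. The number of arrays limits the precision. The fit was also run on simulated data. These had no difference in background between groups, so no conclusion about dim genes is drawn from them.

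Members, lists and the rule for named genes were chosen with earlier results of these data known. The rule takes all members, the other MS4A genes, Gata2, up to 4 called genes a direction of each other list (2 as values where none passes) and the 3 genes most like each called member. Some genes are not reported here. Trem2, Tnfrsf18, Fcer1g, Csf1r, Ccr2, Flt3 and C1qb were singled out later. So were the mast cell, T cell and natural killer cell genes named as not passing. Normexp used the median signal, as a mean signal was not among the columns used here. Promoter windows were aligned with Biopython 1.88. Alternatives covered background correction, normalization, filters, floors, outliers, the variance model, array weights, the probe, a replicate block and the removal of each array. Same-numbered arrays did not deviate together (correlations -0.097, -0.17 and -0.049), so the numbers were not taken as pairs.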

Additional observations from a re-analysis of the deposited data

Results flagged for a closer look

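Among 26 probes of MS4A genes and Gata2, 3 had a control array that stood apart from the other controls by more than Dixon's test allows at 95%, and chance flags about 1 in 20 such groups. Control replicate 2 read 0.98 for Ms4a6b, above the other 3 controls at 0.79 to 0.81. The same array read -4.62 for Ms4a15, where it alone was well above background. Control replicate 3 read -6.13 for Ms4a19, a cluster gene not on the fixed list, against -5.49 to -5.37 on the other controls, with none of the 4 well above background.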

How the results depend on the processing

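Of the 6 tested members, Ms4a7 kept its call in all 21 other settings, while Ms4a6b and Ms4a4c passed in none. Ms4a6d lost its call with the replicate block (log2 difference -1.08, adjusted p = 0.0674) and Ms4a6c in 14 settings. Among members, 5 were called lower without a filter on background, 2 with any 1 array left out and 1 with the replicate block. Over all genes, 365 were called higher and 2483 lower without a filter, 699 and 822 with array weights, 86 and 95 with the replicate block, and 311 lower with a floor at each array's dimmest signal well above background. With 1 array left out, the higher count ranged from 88 to 225 and the lower count from 105 to 179. The lowest counts came without replicate 3 labelled knockout (88 and 105), and the higher count without replicate 1 labelled knockout was 108 and the lower count without control replicate 3 was 133.

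None of the values whose sign turned passed the threshold. Ms4a4c read 0.11 with quantile normalization. Ms4a3 read 0.033 with normexp, 0.024 with quantile normalization, 0.26 with array weights, 0.037 with the replicate block, and from -0.15 to 0.21 with 1 array left out. With normexp, Ms4a5, Ms4a10 and Ms4a13 read -0.022, -0.15 and -0.16. With each array's floor, Ms4a5 and Ms4a10 read -0.012 and -0.46, and with the common floor Ms4a10 read -0.023. Tmem176a ranged from -0.063 to 0.17 with 1 array left out, and Tmem176b read 0.061 with the probe of largest interquartile range. The B cell list's median was -0.089 when every array had to exceed background, and 0.056 under the common floor. That of natural killer cells was -0.29 without a filter and -0.16 when every array had to exceed background. Without a filter the medians of conventional dendritic cells and of mast cells and basophils were -0.051 and -1.87. The letters GATAA in place of AGATAA were in 1 of 7 listed windows. Filters and arrays left out change which genes or arrays enter the fit, and floors raise dim values, while for the other settings the cause was not tested. Another 2 alternatives were chosen after seeing the data, a filter on at least 1 array of each group and a fit of every tested probe. Dim genes are limited by signal over background, which differed between groups.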
